A study of Mus musculus with 14 samples.

Results

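A set of 10 genes of megakaryocytes and platelets was followed in single haematopoietic stem cells (HSCs) of mouse bone marrow, as 10 of the 25832 gene IDs in 4 plate tables. The genes were chosen by name as parts of the platelet's adhesion, granule, signalling and transcription machinery: Vwf, Itga2b, Itgb3, Gp1bb, Cd9, Pf4, Selp, Plek, Rap1b and Fli1. The study asked what loss of Phf19, a Polycomb-associated protein, does to HSCs, and its design text sets PHF19 KO mice against controls of a floxed condition. Of its 14 samples, the 4 analysed here are plates of MARS-Seq, a plate-based method that counts RNA molecules by unique molecular identifiers (UMIs) at the 3' end. Cells were lineage-depleted and sorted as CD150+ CD48-, and each plate (350W, 351W, 352W and 353W) holds 96 wells whose names begin with KO and 96 whose names begin with WT.

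The genotype is known only from these prefixes. KO cells took wells 97 to 192 and WT cells wells 1 to 96 in each plate, so genotype and well position cannot be told apart. Neither the strain, age and number of animals, nor whether WT means the floxed controls, nor which Cre removed the gene is given in the sources used here. No label ties a plate to an animal, and the p-values below rest on the variation among these 4 plates, which may be technical.

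Megakaryocytes are the large marrow cells that shed platelets. Platelets stick to injured vessels when a receptor complex containing Gp1bb catches von Willebrand factor, and they bind each other through the integrin made of the Itga2b and Itgb3 chains, which Rap1b switches on. Part of the stem cell pool already carries transcripts of this programme, and Vwf is used to mark stem cells biased towards platelets. Fli1, an ETS-family transcription factor, is a known activator of several of these genes.

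The promoters of Itga2b and Pf4 are shown because both are classic megakaryocyte promoters with binding sites of GATA and ETS factors. The sequences are the 250 bases before each gene's start in RefSeq's GRCm38.p6, at chr11:102469884-102470133 on the minus strand for Itga2b and at chr5:90772185-90772434 on the plus strand for Pf4. Capitals mark the ETS words AGGAAG and CGGAAG, or the same words read on the other strand.
Itga2b: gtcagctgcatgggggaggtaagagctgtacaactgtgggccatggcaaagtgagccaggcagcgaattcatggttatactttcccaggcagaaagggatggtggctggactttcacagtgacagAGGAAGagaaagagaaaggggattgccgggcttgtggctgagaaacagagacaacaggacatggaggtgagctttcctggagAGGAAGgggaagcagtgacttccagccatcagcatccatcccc
Pf4: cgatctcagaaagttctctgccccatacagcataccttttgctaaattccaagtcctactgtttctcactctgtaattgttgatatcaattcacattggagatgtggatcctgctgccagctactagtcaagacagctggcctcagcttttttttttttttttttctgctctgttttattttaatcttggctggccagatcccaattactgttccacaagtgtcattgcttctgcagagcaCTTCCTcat
Of the 10 genes, 7 had a promoter entry, and 6 of those 7 held an ETS word, as did 39.2% of all 32851 promoters searched over the same length. The words started at -125 and -43 from the gene start in Itga2b and at -9 in Pf4. The GATA words AGATAA and TGATAA were in 0 of the 7, against 16.6% of all promoters, and the RUNX words TGTGGT and TGCGGT were in that of Rap1b only, against 18.6% of all promoters. Both strands were read, and no word overlapped a word of another group in these 7 promoters. These matches are a description of letters in a short window, and say nothing about binding.

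Of 768 wells, the 716 with at least 500 UMIs were kept, and 49 KO and 3 WT wells were left out. Summed UMIs ran from 220821 to 382307 in the KO cells of a plate and from 311886 to 510791 in the WT cells. KO cells were shallower in 4 of 4 plates, with median UMIs per cell at 0.725 to 0.896 of the WT median, so shares of cells with a UMI are given both as deposited and after thinning every cell of 1500 or more UMIs to 1500. Phf19 itself had 0, 2, 1 and 0 UMIs in KO cells and 1, 0, 0 and 5 UMIs in WT cells of 350W, 351W, 352W and 353W. The counted ends of the transcript may lie outside what was deleted, so these UMIs are no test of the labels. Slamf1, which encodes CD150, had 1, 5, 1 and 0 UMIs in KO cells and 4, 16, 0 and 0 UMIs in WT cells of those plates, and Cd48 had 1, 0, 49 and 11 UMIs in KO cells and 0, 0, 62 and 24 UMIs in WT cells. Plates 352W and 353W therefore go against the sort in their transcripts, and the KO to WT comparison is also given from 350W and 351W alone. Cell names were shared by 0 cells between plates.

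KO and WT cells were compared first by a test over all genes. UMIs were summed per plate and genotype and fitted with edgeR's quasi-likelihood test with the plate as a block. Of the 10 genes, 5 had enough UMIs to be tested (Vwf, Itga2b, Cd9, Rap1b and Fli1), and 0 of the 5 passed an adjusted p of 0.05, where 6 of 6541 genes did (0.0917%). None of the 5 reached an unadjusted p of 0.05, as 6.08% of all tested genes did. DESeq2 called 0 of the 5, where 0.0153% of all genes were called, and 0 of the 5 at the unadjusted level, where 0.963% were. Without the block 0 of the 5 and 0 of all genes (0.0%) were called, and without a gene filter 0 of 10, against 0.101% of 25820 genes. The 5 log2 fold changes lay between -0.17 and 0.31 with a median of -0.11, within the 5th to 95th percentile of all tested genes, -0.55 to 0.48. With 350W and 351W alone, 0 of 6 tested members were called, where 1 gene was called over the whole table. The values were -0.75 for Fli1, -0.65 for Itga2b, -0.28 for Vwf, 0.23 for Cd9 and -0.11 for Rap1b.

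**Figure D1:**
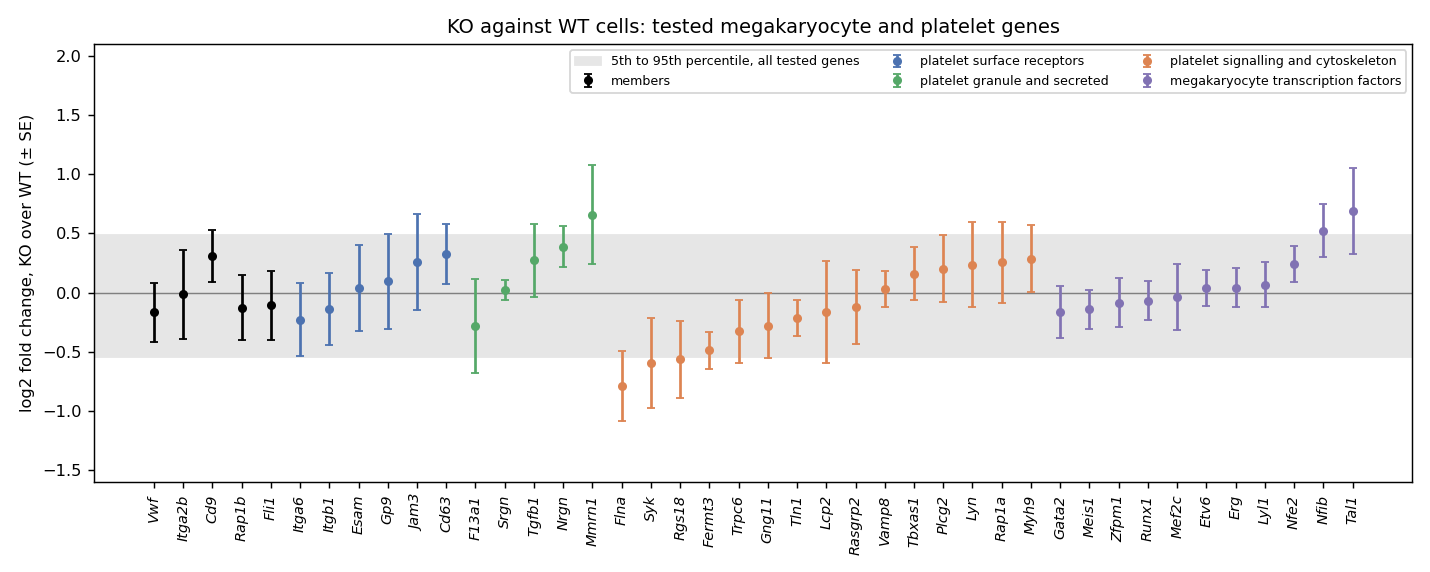
Log2 fold changes of KO over WT cells (points, edgeR with the plate as a block, bars ± SE) for the tested genes of the set and for those of 4 further megakaryocyte and platelet lists that are reported here, with the 5th to 95th percentile of all tested genes shaded. The 5 genes of the set lie between -0.17 and 0.31.

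Vwf, the multimeric plasma protein that tethers platelets, had by far its highest level in 1 plate, 350W, in both genotypes. It lies at chr6:125552948-125686679 (GRCm38.p6). It had 106, 10, 1 and 9 UMIs in KO cells of 350W, 351W, 352W and 353W, which is 478, 32.0, 4.53 and 23.5 CPM (UMIs scaled to a common library total). WT cells of the same plates had 166, 23, 2 and 6 UMIs, or 532, 58.4, 6.30 and 11.7 CPM. Both genotypes were high in 350W and low in the other 3 plates, with exact 95% counting intervals in 350W of 391 to 578 CPM in KO cells and 454 to 620 CPM in WT cells. These and all other intervals cover counting error only. KO was below WT in 3 plates and above it in 353W, and the values of the genotypes overlapped. The log2 fold change was -0.17 with an SE of 0.25 (edgeR adjusted p = 0.955).

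In 350W, 58 of 92 KO cells had a Vwf UMI (63.0%, exact Clopper-Pearson interval 52.3 to 72.9%), against 79 of 95 WT cells (83.2%, 74.1 to 90.1%). These intervals do not meet, but the cells differ in depth. At 1500 UMIs, 42 of 84 KO cells (interval 38.9 to 61.1%) and 54 of 94 WT cells (57.4%, 46.8 to 67.6%) had one, and the intervals overlap; 8 KO and 1 WT cells were too shallow to enter. At 1000 UMIs the order turned, with 41.1% of KO and 38.3% of WT cells, and the mean difference over 4 plates was -0.52 points, against -3.22 at 1500 UMIs. In 351W the thinned shares were 3.61% in KO and 7.37% in WT cells, and in 353W 2.63% and 4.30%. No thinned cell of 352W of either genotype had a Vwf UMI.

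**Figure D2:**
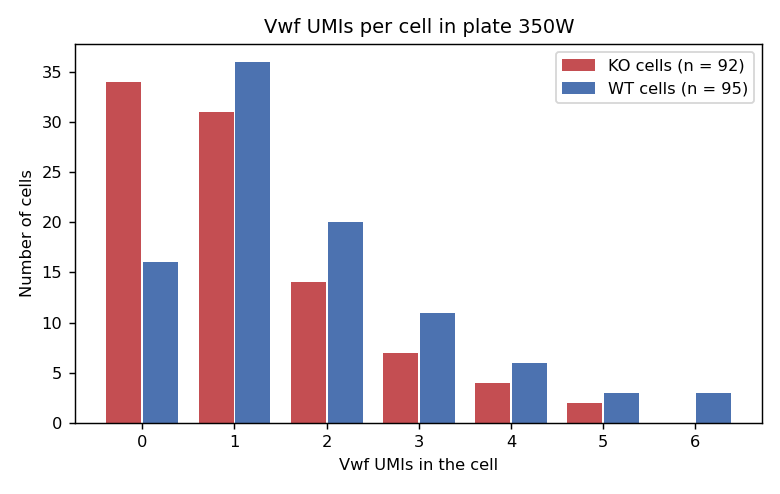
Number of cells (y axis) by the Vwf UMIs counted in the cell (x axis) in plate 350W, for 92 KO and 95 WT cells before thinning. No KO cell holds more than 5 Vwf UMIs and no WT cell more than 6, and 34 KO and 16 WT cells hold none.

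Vwf UMIs in 350W were spread over many cells. After thinning, the variance of Vwf over cells was 0.94 times its mean in KO cells and 1.19 times in WT cells, where the median gene had 1.09 and 1.08. A Poisson count of the same mean would put a UMI in 49.9% of KO and 60.4% of WT cells, near the 42 of 84 KO cells and 57.4% of WT cells observed. Positive cells were found along the plate: 28 of 44 and 30 of 48 KO cells in the first and last 48 KO wells, and 39 of 48 and 40 of 47 WT cells in the first and last 48 WT wells. No KO cell held more than 5 Vwf UMIs, and no WT cell more than 6.

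The plate difference was measured against other genes, in a comparison added after the data were seen. With 10 CPM added to each value, Vwf in 350W was 11.6 times its next plate in KO cells and 7.93 times in WT cells. Such a step of at least 5 times in both genotypes was shown by 16 of 6541 genes in 350W (0.245%), 16 in 351W (0.245%), 4 in 352W (0.0612%) and 7 in 353W (0.107%). Vwf had rank 12 of the 16 in 350W, and the others included Pip4p2, Tbxa2r (the thromboxane receptor of platelets), Oat and Cdc14a, which were named after their values were seen. Of 67 tested genes in all lists, those of the set included, only Vwf was among the 43 genes so counted over the 4 plates. Pf4, Gp1bb, Selp, Plek and Itgb3 were not among the tested genes, so they could not be counted. Endothelial cells also make Vwf. Summed over 12 endothelial genes, KO cells of 350W, 351W, 352W and 353W had 401, 640, 371 and 390 CPM. WT cells of these plates had 478, 647, 349 and 409 CPM. Eng, Egfl7, Ramp2 and Emcn had most of the UMIs of these 12 genes, with 324, 280, 186 and 158 over all plates. Kdr, Cldn5, Cdh5 and Plvap had the fewest, with 6, 8, 14 and 19. The part of endothelial transcripts in the Vwf level was not tested.

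**Figure D3:**
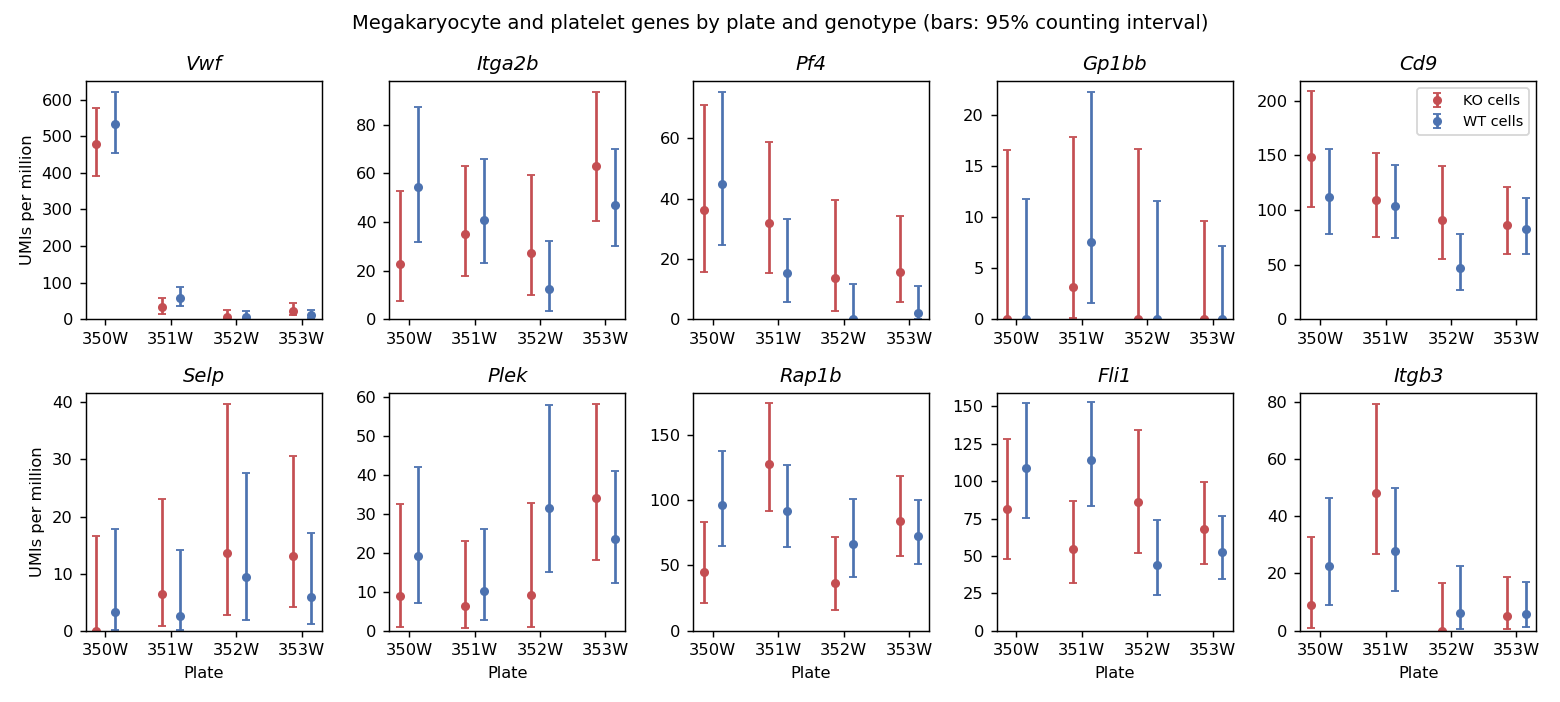
Level of each gene in CPM (y axis, linear, own scale for each gene) by plate (x axis) in KO and WT cells, with exact 95% counting intervals as bars. Vwf stands at 478 and 532 in KO and WT cells of 350W and at 58.4 or less in the other plates.

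The fibrinogen receptor is the integrin of Itga2b (CD41) and Itgb3 (CD61). Itga2b, at chr11:102453297-102469883, had 22.6, 35.2, 27.2 and 62.8 CPM in KO cells of the 4 plates in order, against 54.5, 40.6, 12.6 and 47.0 CPM in WT cells. KO was lower in 350W and 351W and higher in 352W and 353W, and the mean levels were 36.9 ± 18.01 CPM in KO and 38.7 ± 18.3 CPM in WT cells (SD, n = 4 plates each). The log2 fold change was -0.01 (SE 0.38, edgeR adjusted p = 0.998), and from 350W and 351W alone it was -0.65 (adjusted p = 0.977).

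Itgb3, at chr11:104608000-104670476, was sparse, with 2, 15, 0 and 2 UMIs in KO cells and 7, 11, 2 and 3 UMIs in WT cells. Both genotypes were highest in 351W, at 47.98 CPM in KO and 27.9 CPM in WT cells, and in KO cells 6 of those 15 UMIs came from 1 cell. Its 0 in KO cells of 352W allows up to 13.6 CPM, above the 6.30 CPM of WT cells there.

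Gp1bb, at chr16:18620319-18622403, encodes the beta chain of the von Willebrand factor receptor. It had a row in the table of 351W alone, with 1 UMI in KO and 3 UMIs in WT cells, all 3 in 1 cell, and no level could be compared. Its partner chains were as unevenly caught: Gp1ba had 1 UMI in all plates together, Gp5 3 and Gp9 114. Gp9 had 17, 9, 4 and 20 UMIs in KO cells and 29, 19, 9 and 7 UMIs in WT cells.

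Cd9, at chr6:125460266-125494760, is a tetraspanin of the platelet and HSC surface. It had 149, 109, 90.6 and 86.3 CPM in KO cells of 350W to 353W, against 112, 104, 47.2 and 82.2 CPM in WT cells. KO was higher in 4 of 4 plates, by 1.33, 1.05, 1.92 and 1.05 times, while the counting intervals of KO and WT overlapped in every plate. Means were 109 ± 28.5 CPM in KO and 86.4 ± 29.0 CPM in WT cells (SD, n = 4 plates each). Its log2 fold change was 0.31 with an SE of 0.22 (edgeR adjusted p = 0.868).

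The share of cells with a Cd9 UMI depended on depth and plate. As deposited it was 22.8, 22.5, 13.5 and 21.2% in KO cells and 20, 32.3, 10.5 and 21.1% in WT cells, higher in KO in 3 of 4 plates. The mean difference was -0.95 percentage points (SD 6.05 over 4 plates) with 351W and 2.004 points without it. At 1500 UMIs it was 20.2, 14.5, 10.9 and 9.21% in KO cells and 12.8, 10.5, 7.45 and 7.53% in WT cells, higher in KO in 4 of 4 plates by 4.14 points on average (SD 2.42). At 1000 UMIs the mean difference was 1.84 points, and KO was lower in 352W, at 2.94% against 3.16% in WT cells. In KO cells the thinned shares had the same order of plates as the CPM.

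**Figure D4:**
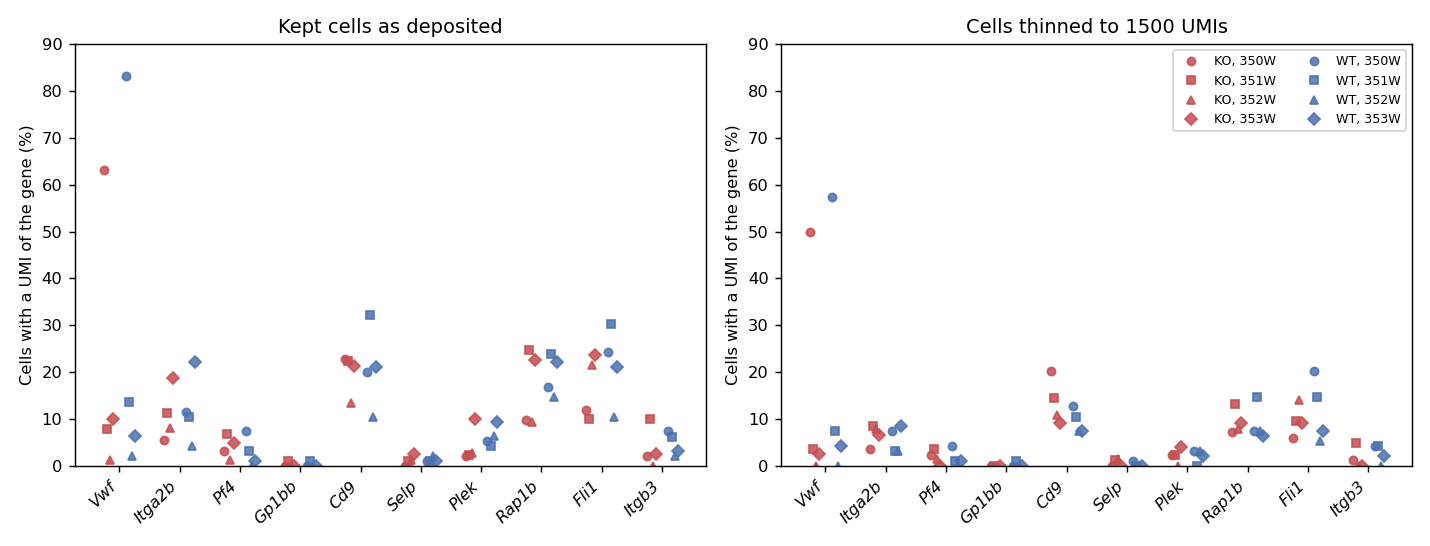
Percentage of cells with a UMI of each gene (y axis) in KO and WT cells of each plate, as deposited and after thinning to 1500 UMIs per cell. For Vwf in 350W the KO and WT shares are 63.0% and 83.2% as deposited, and 42 of 84 KO cells and 57.4% of WT cells when thinned.

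Of the granule genes, Pf4 (platelet factor 4, a chemokine stored in alpha granules; chr5:90772435-90773383) had 8, 10, 3 and 6 UMIs in KO cells and 14, 6, 0 and 1 UMIs in WT cells. In KO cells this was 36.1, 32.0, 13.6 and 15.7 CPM, against 44.9, 15.2, 0 and 1.96 CPM in WT cells. KO was higher in 351W, 352W and 353W and lower in 350W. Pf4 was too sparse for the main test, and without a gene filter its log2 fold change was 0.99 (SE 0.53, unadjusted p = 0.064, edgeR adjusted p = 0.992).

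Pf4 UMIs came from few cells. In 350W, 3 of 92 KO and 7 of 95 WT cells held them all, and the highest cell had 4 of the 8 KO and 6 of the 14 WT UMIs. In 352W all 3 KO UMIs were in 1 cell. After thinning, 6 UMIs were left in 2 KO cells and 4 in 4 WT cells of 350W, too few to describe their spread over cells.

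Selp (P-selectin, an alpha-granule adhesion receptor that reaches the surface on activation; chr1:164115264-164150026) had 0, 2, 3 and 5 UMIs in KO cells and 1, 1, 3 and 3 UMIs in WT cells. Its CPM lay between 0 and 13.6 in KO and between 2.54 and 9.44 in WT cells, and all these counting intervals overlapped. Without a gene filter the log2 fold change was 0.68 (SE 0.92, edgeR adjusted p = 0.992).

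Plek, Rap1b and Fli1 act inside the cell. Plek (pleckstrin, the major protein kinase C substrate of platelets; chr11:16971206-17008718) had 9.02, 6.40, 9.06 and 34.0 CPM in KO cells, against 19.2, 10.1, 31.5 and 23.5 CPM in WT cells. KO was lower in 3 plates and higher in 353W, where 13 KO and 12 WT UMIs were counted. Without a gene filter its log2 fold change was -0.45 (SE 0.53, edgeR adjusted p = 0.992).

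Rap1b (the small GTPase that turns on platelet integrins; chr10:117814597-117845974) had 45.1, 128, 36.2 and 83.7 CPM in KO cells and 96.2, 91.3, 66.1 and 72.4 CPM in WT cells. KO cells spanned a wider range than WT cells, which they undercut in 350W and 352W and exceeded in 351W and 353W. The means were 73.2 ± 41.9 CPM in KO and 81.5 ± 14.5 CPM in WT cells (SD, n = 4 plates each). The log2 fold change was -0.13 with an SE of 0.27 (edgeR adjusted p = 0.963).

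Fli1 (chr9:32422204-32543432) had 81.2, 54.4, 86.0 and 68.0 CPM in KO cells, against 109, 114, 44.1 and 52.9 CPM in WT cells. KO stood at 0.745 and 0.476 times WT in 350W and 351W and at 1.95 and 1.29 times in 352W and 353W. In 351W the KO interval of 31.7 to 87.1 CPM only just met the WT interval of 83.3 to 153 CPM. Thinned shares followed the same split, at 5.95, 9.64, 14.1 and 9.21% in KO cells and 20.2, 14.7, 5.32 and 7.53% in WT cells. Over 4 plates the log2 fold change was -0.11 (SE 0.29, edgeR adjusted p = 0.969), and from 350W and 351W alone it was -0.75 (adjusted p = 0.977).

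For 3 of the tested genes the sign rests on single plates. Without 350W the log2 fold change was 0.32 for Itga2b, 0.12 for Rap1b and 0.02 for Fli1. Without 351W it was 0.06 for Itga2b and 0.26 for Fli1, and without 352W it was 0.02 for Rap1b. Cd9 stayed above 0 in every alternative fit. Vwf did not pass the gene filter without 350W or without 351W, because too few of the remaining plate sums held enough of its UMIs. The sign of its fold change was therefore not checked without these plates. None of these values passed the test.

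The genes were next examined within cells, at 1500 UMIs, where genes of one programme could be caught together. Over the 45 pairs, 103 cells with both genes were counted, where the product of the shares within each plate and genotype gave 114, a ratio of 0.90. Over all pairs of tested genes that ratio was 1.001. The 9 pairs with Vwf had 47 cells with both against 58.1 from the product (0.81), and the 36 pairs without Vwf had 56 against 56.1. By plate the ratio was 0.87 in 350W, 0.86 in 351W, 1.37 in 352W and 0.89 in 353W, and the product gave only 7.28 cells in 352W.

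Among the 12 pairs with at least 3 such cells from the product, 6 ratios were above 1 and 6 below, with a median of 1.002. Vwf with Cd9 was seen in 12 cells against 17.0, Vwf with Fli1 in 12 against 15.2 and Vwf with Itga2b in 4 against 6.47. Vwf with Pf4 was seen in 5 cells against 3.52, and Rap1b with Fli1 in 8 against 7.07. A total of 20 pairs were never seen in the same cell. For these the product gave at most 1.64 cells (Pf4 with Cd9), too few to read the zeros as avoidance. Cells sharing a plate are not replicates, so these ratios have no test.

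**Figure D5:**
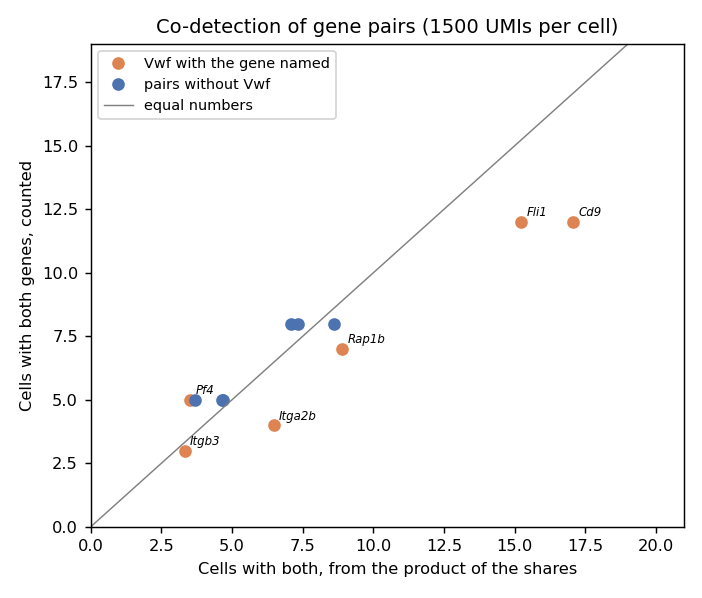
Cells counted with both genes of a pair (y axis) against the number given by the product of their shares within plate and genotype (x axis), at 1500 UMIs per cell, for the 12 pairs with at least 3 from the product. Points on the line have equal numbers, and Vwf with Cd9 lies below it at 12 against 17.0.

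In 350W, the plate with most Vwf, the other genes were counted in cells with and without a Vwf UMI, and all counts were small. Of 42 Vwf-positive KO cells 6 had Cd9 and 0 had Itga2b, against 11 and 3 of 42 Vwf-negative KO cells. Of 54 Vwf-positive WT cells 5 had Cd9 and 3 had Itga2b, against 7 and 4 of 40 Vwf-negative WT cells. Pf4 was the other way round, in 2 positive and 0 negative KO cells and in 3 positive and 1 negative WT cells. Itgb3, Plek and Selp also had larger shares in positive WT cells, at 5.56, 3.70 and 1.85% against 2.5, 2.5 and 0%, but not in KO cells. Fli1 had smaller shares in positive cells of both genotypes, and Rap1b was equal or nearly so.

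Few cells held several of the 10 genes. In 350W, 19.05% of KO and 29.8% of WT cells held at least 2, and in 353W 5.26% of KO and 4.30% of WT cells did. The shares in 351W were 9.64% in KO and 10.5% in WT cells, and in 352W 7.81% in KO and 5.32% in WT cells. Without Vwf, 3.57% of KO and 10.6% of WT cells of 350W held at least 2, against 9.64% of KO and 9.47% of WT cells of 351W. Those shares without Vwf were 7.81% of KO and 5.32% of WT cells in 352W, and 3.95% and 3.23% in 353W. The higher share of 350W thus rested on Vwf in KO cells and largely on Vwf in WT cells. Without Vwf, 350W stayed the highest plate in WT cells only narrowly, at 10.6% against 9.47% in 351W. No thinned cell held more than 4, which was reached by 1 WT cell of 350W. Between 27.4 and 64.5% of KO cells and between 19.1 and 78.7% of WT cells of a plate held none.

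Across the 8 sums of plate and genotype, the genes did not share one pattern. Pearson's r of log2(CPM + 10), given as a description because the sums share plates, was 0.86 for Pf4 with Cd9, 0.83 for Rap1b with Itgb3, 0.78 for Vwf with Pf4 and -0.81 for Vwf with Selp. Among 4147 tested genes of at least 50 CPM, the patterns most like Vwf were those of Grn, Arf5 and Acot13 (r = 0.99, 0.98 and 0.97). For Itga2b they were Gm13413, Arpp19 and Rpl15-ps4, for Pf4 Gm13862, Gm17786 and Rrm2b, and for Cd9 Gm7429, Rpl30-ps2 and Mcrip1. For Plek they were Inpp5d, Macrod1 and Nmt1, for Rap1b Ppp1r9b, Chmp2a and Fyn, for Fli1 Top2b, Taf1 and Gng11, and for Itgb3 Csnk1g1, Trim47 and Mylk. For the sparse Selp they were Mrpl18, Zfp706 and Hypk, and for Gp1bb Rab38, Ptprcap and Sdf2. Gp1bb had UMIs in 351W alone, so its list only holds genes high in that plate. Each list is the top of 4147 genes over 8 sums, where a high r can arise without any relation.

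The wider platelet programme was read from 4 further lists of 71 genes, of which 65 had a row in the tables and 38 were tested. Of the 38, 0 passed the edgeR test and 20 had a fold change above 0, with a median log2 fold change of 0.03 against -0.0041 over all tested genes. The share called over all genes was 0.0917%. At an unadjusted p of 0.05 there were 4 of 38, namely Fermt3, Flna, Nfib and Nrgn, where 6.08% of all genes passed. Without the block there was 1, Flna, but the share of all genes at this level was not counted in that fit. DESeq2 called 0, with 0 at that unadjusted level, where 0.963% of all genes passed.

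Of the surface receptors 7 of 19 were tested, among them Cd63, a granule tetraspanin (log2 fold change 0.33), and Itga6, a laminin receptor chain (-0.23). Of the granule and secreted genes 5 of 13 were tested. Srgn, the proteoglycan that packs granules, stood at 1051 ± 252 CPM in KO and 1026 ± 179 CPM in WT cells (SD, n = 4 plates each), a log2 fold change of 0.02. Nrgn, a calmodulin-binding protein abundant in platelets, had 0.39 (SE 0.17, edgeR adjusted p = 0.76) and Tgfb1 0.27.

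Of the signalling and cytoskeleton genes 15 of 24 were tested. Fermt3 (kindlin-3, which activates integrins) had 22, 44, 17 and 103 UMIs in KO cells and 42, 72, 45 and 186 UMIs in WT cells. Its log2 fold change of -0.49 had an SE of 0.16 (edgeR adjusted p = 0.63). Flna (filamin A, which links Gp1ba to actin) had 7, 9, 8 and 19 UMIs in KO cells and 14, 22, 26 and 38 UMIs in WT cells, at -0.79 (SE 0.30, adjusted p = 0.72), Tln1 (talin) -0.21 and the secretory SNARE Vamp8 0.03. Of the transcription factors 11 of 15 were tested, with Etv6 at 0.04, Nfe2 at 0.25, Meis1 at -0.14 and Nfib at 0.52 (SE 0.22, adjusted p = 0.75). Catch was uneven within the lists: over all plates Ppbp had 1 UMI, Gp6 1, Treml1 11 and Gata1 11, while F13a1 had 90 and Mmrn1 96, all 6 named after their values were seen.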

How the data were processed

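The 4 MARS-Seq tables are raw UMI counts, one whole number for each gene in each cell, as the authors deposited them, per the file headers and the labels. The submitters' processing notes name the build GRCm38.p4 and FastQC; which aligner and counter were run is not given in the sources used here. The 4 region lists of H3K27me3 ChIP-seq, in another build, were not used.

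Of the 25832 IDs, 25714 were paired with a symbol, matching IDs without their version, and all 10 genes were found (9 in all 4 tables). A gene without a row in a table was taken as 0 there. Genotype was read from the cell names. Cells of at least 500 UMIs were kept, with no doublet calling. The genes and lists, and the plate block, were chosen with earlier results of these data known; without the block 0 genes were called. Plates are the replicates.

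Summed counts of each plate and genotype entered edgeR 4.0.16 in R 4.3.3 (filterByExpr, TMM, quasi-likelihood test, plate as a block, Benjamini-Hochberg adjustment over 6541 genes, threshold 0.05). The SE of a log2 fold change is its size over the square root of F. CPM divides a count by all UMIs of the summed cells and scales it to a common total; a fold across plates used a pseudocount of 10 CPM. KO and WT cells were on the same plates, and the deviations of same-plate sums from the genotype means correlated at 0.569 to 0.664 over the 6541 genes, so the plate was treated as a pairing. Intervals are exact at 95% (Poisson for counts, Clopper-Pearson for shares), and a count of 0 allows 3 counts. Cells were thinned to 1500 UMIs without replacement in Python 3.11.15 with scipy 1.17.1. On simulated counts of 6541 genes for this comparison, 20% of genes changed 1.5-fold, 66% changed 2-fold, 96% changed 4-fold and 100% changed 8-fold were recovered (50 genes each), with 3 false among 144 calls. The changed genes were drawn at random from all tested genes. With 144 calls against 6 in the real fit, the adjusted threshold was easier to pass. These shares are therefore not the power for the 5 tested genes of the set, whose SEs were 0.22 to 0.38.

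Named genes were the 10, up to 3 members of each other list by mean CPM with any called member, and 3 genes of highest likeness for each of the 10; other genes named, and the sort genes Slamf1 and Cd48, were chosen after their values were seen. One gene of these lists is counted but not reported here. Alternatives were other scalings, DESeq2 1.42.0, no gene filter, other cell filters, no block, thinning, leaving out each plate in turn, 350W and 351W alone, other pseudocounts and CPM averaged over cells.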

Additional observations from a re-analysis of the deposited data

Results flagged for a closer look

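With 4 plates in each genotype, the level and the share of cells with a UMI of each of the 10 genes gave 40 groups of values, and in 12 of them the highest or lowest plate stood apart from the nearest other by more of the range than Dixon's 95% critical value for 4 samples. Chance flags about 1 in 20 groups, and the level and share of one gene are not independent.

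Vwf in 350W stood apart in level, at 478 CPM in KO and 532 CPM in WT cells, and in share, at 63.0% of KO and 83.2% of WT cells. Gp1bb in 351W stood apart at 3.20 CPM in KO and 7.61 CPM in WT cells, and at 1.12% of KO and 1.04% of WT cells, because the other plates had 0. Plek in KO cells of 353W stood at 34.0 CPM and 10% of cells. The share of cells with a Cd9 UMI was low in KO cells of 352W, at 13.5%, and that of Selp was high in WT cells of 352W, at 2.11%, which is 2 cells.

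The 52 wells left out for having under 500 UMIs held 16463 UMIs in all, of which 4 belonged to the 10 genes. They were 1 Vwf and 3 Plek UMIs, all in KO wells of 352W.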

How the results depend on the processing

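None of the 10 genes was called in the reported fit or in any of its 14 alternatives, in which between 2 and 10 genes of the set could be tested. The count of genes called over the whole table was 6 and was unstable: 0 with no replicate block, 1 with DESeq2, 26 when no genes and 3 when no cells were filtered out, 2 after removal of wells holding more than 100 immunoglobulin UMIs, 2 when thinned to 1500 UMIs, and 1 from 350W and 351W alone, an alternative chosen after seeing the data. Leaving out a plate gave 2 to 12, with 12 without 352W and 2 without 353W.

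Of 72 alternative log2 fold changes of the 5 tested genes, 64 kept their sign and 8 turned. Itga2b turned to 0.055 without the immunoglobulin wells, to 0.094 with CPM averaged over cells, to 0.32 without 350W and to 0.062 without 351W, with a range of -0.26 to 0.32 when a plate was left out. Rap1b turned to 0.12 without 350W and 0.025 without 352W (range -0.42 to 0.12), and Fli1 to 0.016 without 350W and 0.26 without 351W (range -0.36 to 0.26). The cause was not tested. The block changed no call among the 10 genes. Of 60 alternative share differences, 56 moved by less than the SD of the differences over plates. Leaving out a plate can shift their mean by only a fraction of that SD, so those alternatives could not fail. Only thinning could, and the 4 larger moves were Gp1bb at 1500 and 1000 UMIs, Plek at 1500 and Rap1b at 1000. Smaller moves could still turn the sign, as for Cd9 from -0.95 points as deposited to 4.14 at 1500 UMIs. The co-detection ratio was 1.07 as deposited, 0.79 at 1000 UMIs and 0.87 to 0.95 without a plate. With a pseudocount of 1 CPM, at least 2 of the 3 most similar genes were shared for 6 of the 10 genes, and only 1 for Pf4, Gp1bb, Selp and Itgb3. Depth limits the sparse genes most: Gp1bb, Selp, Plek, Pf4 and Itgb3, with 4 to 51 UMIs in all, were too low for the reported test.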

Other observations

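Lists of other cell types gave these summed levels per plate. The 12 erythroid genes summed to 475 to 1114 CPM in KO cells and 474 to 1068 CPM in WT cells, led by Car2, carbonic anhydrase 2, at 681 ± 273 CPM in KO and 641 ± 305 CPM in WT cells (SD, n = 4 plates each). The 15 HSC genes summed to 1100 to 2006 CPM in KO and 1155 to 2040 CPM in WT cells. Kit, the stem cell factor receptor, was the steadiest of those named, at 226 ± 28.8 CPM in KO and 234 ± 27.2 CPM in WT cells (SD, n = 4 plates each). Neutrophil and monocyte genes summed to 280 to 688 CPM in KO and 327 to 692 CPM in WT cells, and mast cell and basophil genes to 40.6 to 163 CPM in KO and 30.4 to 129 CPM in WT cells.

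The lymphoid list ranged most, from 90.2 to 9179 CPM in KO and from 57.7 to 12358 CPM in WT cells. It stood at 9179 CPM in KO and 12358 CPM in WT cells of 352W and at 1648 CPM in KO and 3915 CPM in WT cells of 353W, the plates with Cd48 and almost no Slamf1 UMIs, and at no more than 112 CPM in KO and 122 CPM in WT cells of 350W and 351W. Its Ighm, the immunoglobulin mu heavy chain, fell in KO cells (log2 fold change -1.10, SE 0.18, edgeR adjusted p = 0.025) and was the only gene called in any list. Without wells holding more than 100 immunoglobulin UMIs its value was -0.08 (edgeR adjusted p = 0.993). Ighm UMIs count towards that limit, so the wells were chosen partly by Ighm itself and the value is no independent check. The endothelial list of 12 genes had 4 tested and 0 called, and the erythroid, HSC, mast cell, and neutrophil lists had 0 called of 3, 9, 1 and 3 tested by edgeR.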
